A study of Mus musculus with 12 samples.

Results

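The genes described here are Ly6c2, Ccr2, Csf1r, Cx3cr1, F13a1, Mrc1 and the C1q chains C1qa, C1qb and C1qc. They are 9 of the 37583 genes in the deposited table, were chosen by name as genes of monocytes and macrophages, and were read in all 12 libraries. The question put to them was whether the blood fraction held the classical monocyte pair (Ly6c2, Ccr2) or the C1q chains of tissue-type macrophages, and whether either differed with time after injury. Every library came from wild-type mice given burn and tenotomy (a dorsal burn with cutting of the tendon is the usual form of this injury model), and all groups shared this injury. Whole blood was enriched on the iChip, a microfluidic sorting device, and the submitters describe the product as circulating mesenchymal progenitor cells (cMPCs) with blood cells, so it was not a purified monocyte preparation. Blood was taken at 6 h (group 6h), at 1 day (Day1) and at 7 days (Day7) after injury, with 4 libraries in each group; the labels give neither strain nor age, and uninjured mice were not analysed here. Whether the replicates of a group come from different animals is not stated, and the p-values below then cover only library-to-library spread, which may be technical.

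Monocytes leave the bone marrow for the blood as classical cells, which carry the surface protein Ly6C and the chemokine receptor Ccr2, and a part of them converts to non-classical cells that patrol vessel walls and carry much Cx3cr1, the fractalkine receptor. Both carry Csf1r, the receptor for the growth factors Csf1 and Il34. Macrophages in tissues make C1q, whose A, B and C chains (C1qa, C1qb, C1qc) assemble into the molecule that starts the classical complement pathway, and many carry the mannose receptor Mrc1 (CD206). F13a1 encodes the A subunit of coagulation factor XIII, which cross-links fibrin; it is made by monocytes and macrophages and is also abundant in platelets and their precursors, the megakaryocytes.

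Promoters of 4 members are printed because the C1qb and C1qc values lay close together across libraries, whereas Ly6c2 and F13a1 each followed another order. Each is the 300-base RefSeq window (GRCm38.p6) from 250 bases before to 50 bases after a transcription start, written 5′ to 3′ on the gene's strand, and 7 of the 9 members had a window in the table used. Ly6c2 and F13a1 have 2 windows each, and the more upstream one is printed. Capitals mark the core bound by PU.1, the myeloid transcription factor, which was searched as GAGGAA on both strands. They also mark the shorter core of the other factor family searched, that of Gata1 of megakaryocytes and red cell precursors, with the letters GATAA on either strand. The motifs do not overlap each other in the printed windows. C1qb lies at chr4:136886151-136886450 and C1qc at chr4:136892865-136893164, both on the minus strand, Ly6c2 at chr15:75111922-75112221 on the minus strand, and F13a1 at chr13:37050195-37050494 on the minus strand.
C1qb: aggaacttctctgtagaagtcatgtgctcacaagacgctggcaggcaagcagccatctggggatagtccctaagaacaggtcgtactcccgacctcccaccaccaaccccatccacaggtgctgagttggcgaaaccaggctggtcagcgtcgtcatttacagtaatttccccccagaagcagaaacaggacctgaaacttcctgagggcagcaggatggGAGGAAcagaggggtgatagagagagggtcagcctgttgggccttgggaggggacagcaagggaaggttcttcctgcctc
C1qc: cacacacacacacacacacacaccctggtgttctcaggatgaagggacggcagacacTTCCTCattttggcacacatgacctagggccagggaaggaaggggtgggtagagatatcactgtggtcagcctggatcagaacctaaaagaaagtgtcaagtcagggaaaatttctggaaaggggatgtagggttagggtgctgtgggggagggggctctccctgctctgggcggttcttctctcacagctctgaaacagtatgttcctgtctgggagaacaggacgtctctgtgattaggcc
Ly6c2: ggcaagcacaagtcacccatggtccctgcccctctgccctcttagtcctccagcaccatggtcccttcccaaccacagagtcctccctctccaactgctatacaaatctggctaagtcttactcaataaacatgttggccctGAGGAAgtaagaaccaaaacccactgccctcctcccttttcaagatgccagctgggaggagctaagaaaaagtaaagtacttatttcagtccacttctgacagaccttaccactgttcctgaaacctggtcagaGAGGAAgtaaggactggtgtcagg
F13a1: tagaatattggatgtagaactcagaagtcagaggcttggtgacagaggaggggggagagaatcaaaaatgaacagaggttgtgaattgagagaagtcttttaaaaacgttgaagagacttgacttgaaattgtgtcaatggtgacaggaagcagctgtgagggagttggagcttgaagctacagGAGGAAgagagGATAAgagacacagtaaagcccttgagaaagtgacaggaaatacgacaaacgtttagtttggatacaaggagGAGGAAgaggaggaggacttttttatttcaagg
At least 1 PU.1 core was present in 7 of the 9 member windows, against 28.3% of all 32851 windows of this length; 4 of these 7 are the windows of Ly6c2 and F13a1, and those of Ly6c2 overlap. The printed C1qb and C1qc windows hold 1 PU.1 core each, and those of Ly6c2 and F13a1 hold 2 each. The Gata1 core stood in 2 of the 9 windows, 1 of F13a1 and that of Ccr2, against 25.4% of all windows. These matches describe letters, not binding.

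Library depth ran from 5098395 to 12379041 reads, and haemoglobin genes took 16.1% to 70.3% of them. The values below are the deposited ones, reads scaled to an effective library size by the authors, so that 1 read is worth 0.0314 to 0.617 units depending on the library. Between 7631 genes (6h replicate 1) and 16647 genes (Day1 replicate 2) had reads, and 6h replicate 1 and Day7 replicate 3 (7635 genes) had the fewest. Y-linked reads were present in 5 of 12 libraries (2 of 6h, 3 of Day1) and in none of Day7, so the presence of these reads moved with the time groups. The 9 members together had 73 reads in 6h replicate 2 and 10483 in 6h replicate 1, and between 254 and 4635 in the other 10 libraries.

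No member passed the test in any of the 3 comparisons. The test was limma on log2(value + 1) across all 12 libraries, with p-values adjusted by Benjamini-Hochberg over the 11211 genes tested and a threshold of 0.05; 8 of the 9 members reached the filter (4 or more libraries with a value of 1 or above) and Mrc1 did not. Between Day1 and 6h, 0 of 8 members passed, against 0.169% of all tested genes; at an unadjusted p under 0.05 there were 3 members, against 11.2% of genes. For Day7 against Day1 the count was 0 of 8, against 5.78% of genes, and 1 member had an unadjusted p under 0.05, against 29.1%. For Day7 against 6h it was 0 of 8, against 0.883%, with 2 members at an unadjusted p under 0.05, against 18% of genes; 0 of 8 members had groups without overlap there, against 5.83% of genes. edgeR's quasi-likelihood test and DESeq2, run on the whole reads recovered from the values, also called 0 members in each comparison. Of all 11211 genes edgeR called 14 for Day1 against 6h, 2 for Day7 against Day1 and 93 for Day7 against 6h. DESeq2 called 194, 1573 and 726 in the same order. The sizes differed widely all the same: log2 fold changes ran from -1.74 (Cx3cr1, Day7 against 6h) to 3.06 (F13a1, Day7 against 6h), with standard errors of 0.66 to 1.38. As the libraries are bulk samples, fewer cells of a type and less RNA per cell cannot be told apart in any of these values.

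**Figure D1:**
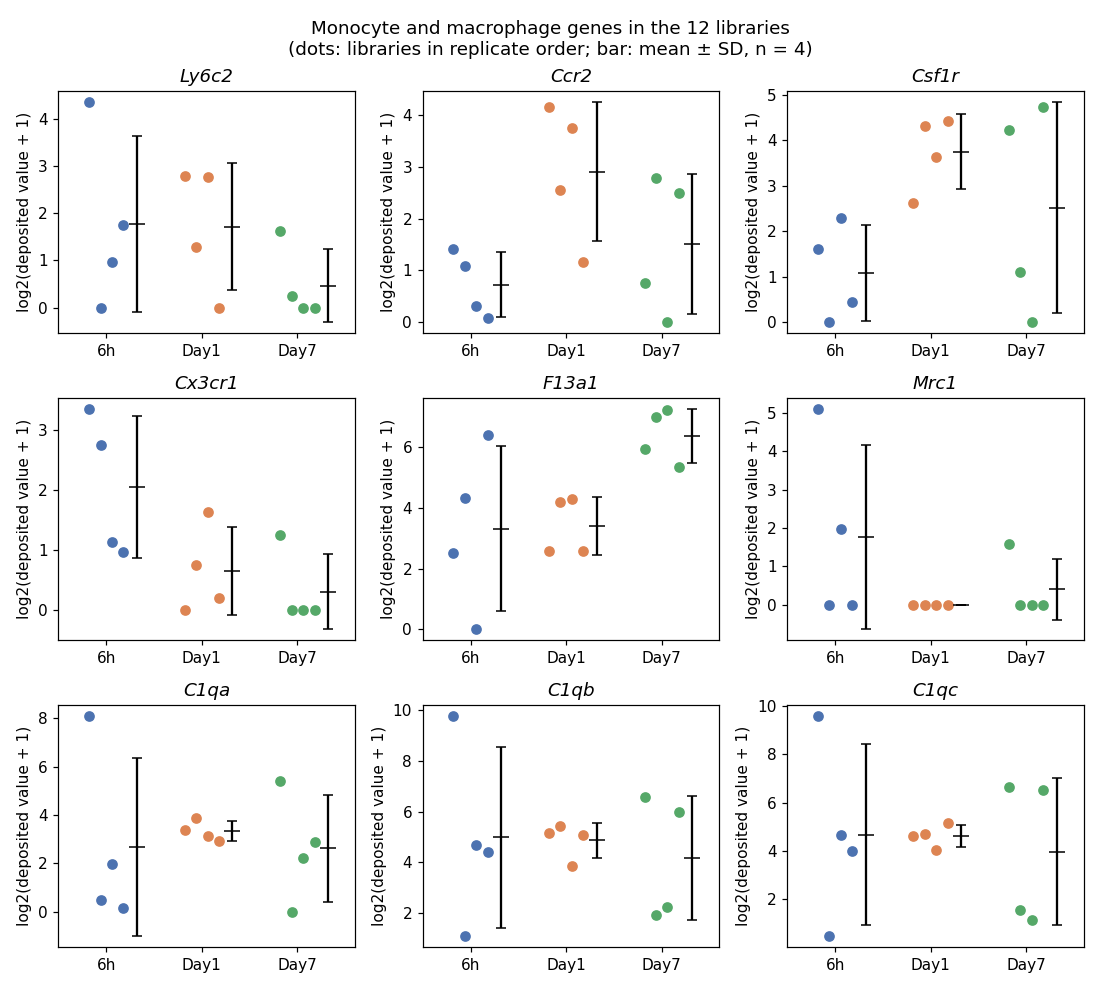
Each panel plots 1 member as log2(deposited value + 1) in the 4 libraries of 6h, Day1 and Day7 (dots, in replicate order) with the mean and SD beside them. The 3 C1q panels share 1 high 6h library, F13a1 is higher in each Day7 library than in any Day1 library, and Mrc1 is 0 in all 4 Day1 libraries.

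**Figure D2:**
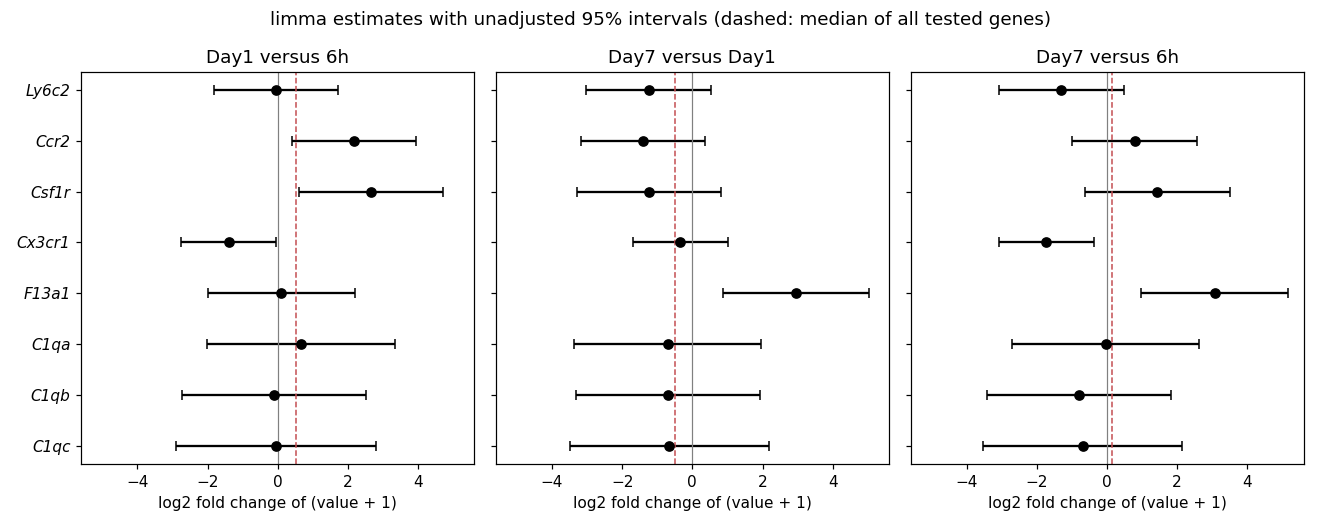
Dots are limma's log2 fold changes of (value + 1) for the 8 tested members and bars their unadjusted 95% confidence intervals; the dashed line is the median of all tested genes (0.52, -0.48 and 0.13). Only F13a1, Csf1r, Ccr2 and Cx3cr1 have an interval that leaves out 0 in any comparison, and none of these passed after adjustment.

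The C1q chains were the most abundant members per base of transcript, and their level varied more within 6h and Day7 than between times. C1qb stood at 855, 1.14, 24.6 and 20.4 in 6h replicates 1 to 4, at 34.6, 41.6, 13.5 and 32.5 at Day1, and at 94.1, 2.87, 3.70 and 62.2 at Day7. C1qc was close to it, with 762, 0.379, 24.6 and 14.8 at 6h, 23.2, 25.3, 15.5 and 34.8 at Day1, and 100.2, 1.91, 1.23 and 92.1 at Day7. Both chains were high in 6h replicate 1, at intermediate and similar levels in the 4 Day1 libraries, and split at Day7 into replicates 1 and 4, which were high, and replicates 2 and 3, which were low. All 3 time groups overlapped.

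C1qa, the A chain, was lower and less regular than the other chains. Its values were 269, 0.379, 2.90 and 0.120 at 6h, 9.27, 13.8, 7.81 and 6.66 at Day1, and 40.9, 0, 3.70 and 6.32 at Day7. The highest library was again 6h replicate 1, and the Day1 libraries again lay together.

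In none of the 3 comparisons did a C1q chain pass limma's test. From 6h to Day1 the log2 fold change was 0.66 for C1qa (SE 1.30, adjusted p = 0.876), -0.11 for C1qb (SE 1.28, adjusted p = 0.982) and -0.044 for C1qc (SE 1.38, adjusted p = 0.997). From Day1 to Day7 it was -0.71, -0.69 and -0.66 for C1qa, C1qb and C1qc (adjusted p = 0.742, 0.745 and 0.777). From 6h to Day7 it was -0.044, -0.80 and -0.70 (adjusted p = 0.989, 0.770 and 0.821). The intervals were wide: for C1qb from 6h to Day1 the limma 95% interval reached from -2.74 to 2.52, so that changes of several fold in either direction lie inside it. Without 6h replicate 1, C1qb was 1.47 higher at Day1 than at 6h on the log2 scale and C1qc 1.59 higher, and neither passed. Under edgeR's model of raw reads, which weights large counts, the C1qb change from 6h to Day1 was -2.88 (adjusted p = 0.745).

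A single library held most of the C1q signal. 6h replicate 1 carried 74.6% of the summed C1qa value over the 12 libraries, 72.1% of that of C1qb and 69.5% of that of C1qc. The same library held 87.2% of the summed Mrc1 value and 50.8% of that of Ly6c2, but only 2.05 of Csf1r. Its T cell marker genes summed to 1231, against at most 84.8 in each of the other 11 libraries, with Cd3d at 224, Cd8a at 194 and Cd3e at 144. In this library 1 of the 12 markers was at 0 reads, and over the 6h group 12 of 12 were detected. Genes best known from the thymus were high there too: Dntt, the polymerase that adds bases to antigen receptor joints, at 127 (at most 3.30 elsewhere) and Tbata at 955 (at most 29.7 elsewhere). Of 28 further tissue macrophage genes, 15 were at 0 reads in that library. Those at 0 included Emr1 (the gene of F4/80), Mertk, Folr2, Vsig4, Timd4 and Ms4a7, whereas Cd68 stood at 137, Aif1 at 54.9 and Cd163 at 34.5. The part of these other cells in the C1q values was not tested.

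The ratio between the chains varied between libraries by more than counting error, both for C1qc against C1qb and for C1qa among all C1q reads. C1qc made up 47.1% of the C1qb and C1qc reads in 6h replicate 1 (4084 of 8665 reads, exact 95% interval 46.1% to 48.2%). In the other 8 libraries with at least 200 such reads it ran from 37.8% in Day1 replicate 2 (interval 35.7% to 39.9%) to 59.7% in Day7 replicate 4 (interval 55.1% to 64.2%). C1qa made up 14.3% of all C1q reads in 6h replicate 1 (1442 of 10107, interval 13.6% to 15.0%) and 17.4% in Day7 replicate 1 (594 of 3418). It made up 0.340% in 6h replicate 4, where 2 of 589 C1q reads were C1qa (interval 0.0411% to 1.22%), and 3.93% in Day7 replicate 4 (19 of 483, interval 2.38% to 6.08%). In the 4 Day1 libraries the C1qa share ran from 9.0% to 21.2%. The low shares of 6h replicate 4 and Day7 replicate 4 therefore lay outside the counting intervals of the Day1 libraries. Reads were not marked by molecular identifiers, so these intervals cover counting error only. None of the 50-base stretches of the C1q transcripts in the reference annotation recurred in another gene.

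**Figure D3:**
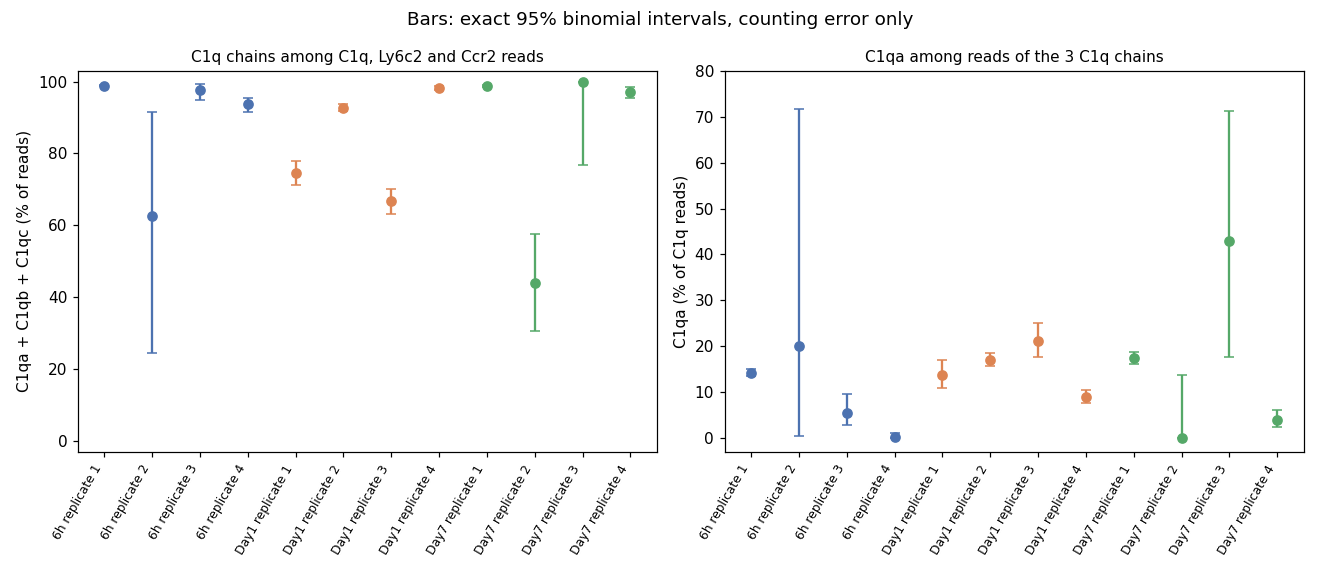
The left panel plots C1q reads as a percentage of all C1q, Ly6c2 and Ccr2 reads in each of the 12 libraries, and the right panel C1qa as a percentage of C1q reads; bars are exact 95% binomial intervals. On the left only Day7 replicate 2 is below 50%, at 43.9%, and on the right 6h replicate 4 is at 0.340% with a narrow interval.

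Of the classical monocyte pair, Ccr2, the receptor that draws monocytes out of the marrow and into injured tissue, was measured at 1.68, 1.14, 0.241 and 0.0599 in 6h replicates 1 to 4, which are 9, 3, 1 and 1 reads. At Day1 it stood at 16.8, 4.90, 12.6 and 1.25 (136, 156, 166 and 32 reads), and at Day7 at 0.688, 5.93, 0 and 4.66 (10, 31, 0 and 14 reads). At Day1, 3 of 4 libraries were above every 6h library and the fourth was not. The log2 fold change from 6h to Day1 was 2.18 (SE 0.86, unadjusted p = 0.0177), and it did not pass after adjustment over all genes (limma, adjusted p = 0.368). From Day1 to Day7 it was -1.40 (SE 0.86, adjusted p = 0.278).

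Ly6c2, which encodes part of the Ly6C antigen of classical monocytes, was at 19.4, 0, 0.966 and 2.34 at 6h (104, 0, 4 and 39 reads), at 5.93, 1.44, 5.84 and 0 at Day1, and at 2.06, 0.191, 0 and 0 at Day7. It was at 0 in 4 of 12 libraries, and the 3 groups overlapped. The log2 fold change was -0.052 from 6h to Day1 (SE 0.86, adjusted p = 0.989), -1.25 from Day1 to Day7 (adjusted p = 0.336) and -1.30 from 6h to Day7 (adjusted p = 0.434). Ly6c2 shares sequence with its neighbour Ly6c1: 379 of its 2733 stretches of 50 bases also occur in Ly6c1, and 14.4% occur in some other gene, so its reads could be divided between them by the counting. Ly6c1 itself did not exceed 2.65 in any library.

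Ly6c2 and Ccr2 did not keep a fixed ratio, although both mark the classical cell. In 6h replicate 1, 92.0% of their joint reads were Ly6c2 (104 of 113, exact 95% interval 85.4% to 96.3%), and in 6h replicate 4 it was 97.5% (39 of 40, interval 86.8% to 99.9%). In Day1 replicates 1, 2 and 3 the share was 26.1%, 22.8% and 31.7%, on 184, 202 and 243 reads. In Day1 replicate 4 it was 0 of 32 reads, which allows up to 10.9%. At Day7 the share was 75.0% in replicate 1 and 3.13% in replicate 2, and replicate 3 had no read of either gene. The Ccr2 reads thus exceeded those of Ly6c2 in every Day1 library, but the Ccr2 transcript is longer (4749 against 793 bases). Per kilobase Ly6c2 was the higher in 3 of 4 Day1 libraries, with group means of 4.17 ± 3.83 (SD, n = 4) against 1.87 ± 1.49.

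Set against each other, C1q reads outnumbered the classical pair in 11 of 12 libraries. The C1q chains took 98.9%, 62.5%, 97.7% and 93.6% of the joint reads at 6h, 74.7%, 92.7%, 66.7% and 98.3% at Day1, and 98.8%, 43.9%, 100% and 97.2% at Day7. Day7 replicate 2 was the exception, with 25 C1q reads against 32 (exact 95% interval of the share 30.7% to 57.6%), and in 6h replicate 2 the balance rested on 8 reads in all. The 100% of Day7 replicate 3 rested on 14 reads (interval 76.8% to 100%). Per kilobase the summed C1q chains were above the summed pair in 12 of 12 libraries, Day7 replicate 2 at 3.64 against 1.49. On the log2(value + 1) scale the mean of the C1q chains exceeded that of Ly6c2 and Ccr2 by 2.86 ± 2.57 (SD, n = 4) at 6h, 1.97 ± 1.59 at Day1 and 2.61 ± 2.36 at Day7. These differences were taken within a library and are descriptions without a test. The scaling acts on both sides but does not cancel, as 1 is added to each value. Scaled to all reads, the means were 2.84 at 6h, 2.28 at Day1 and 2.15 at Day7. The groups overlapped, from 0.13 to 6.25 at 6h, from 0.41 to 3.80 at Day1 and from -0.36 to 5.02 at Day7.

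Csf1r, the growth factor receptor shared by monocytes and macrophages, showed the clearest separation between 6h and Day1. It stood at 2.05, 0, 3.86 and 0.360 at 6h, at 5.19, 18.9, 11.4 and 20.4 at Day1, and at 17.8, 1.15, 0 and 25.6 at Day7. Each Day1 library was above each 6h library, whereas Day7 spanned both ranges. Among members, Csf1r alone had groups that did not overlap between 6h and Day1, which held for 6.4% of all tested genes. The log2 fold change was 2.67 (SE 1.00, unadjusted p = 0.0134) and did not pass after adjustment (limma, adjusted p = 0.341). From Day1 to Day7 it was -1.23 (SE 1.00, adjusted p = 0.423), and from 6h to Day7 it was 1.43 (adjusted p = 0.457). Csf1r and C1qb did not go together in 6h replicate 1, which had 4581 C1qb reads and 11 of Csf1r.

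The choice of scale mattered for Csf1r and Ccr2. When values were scaled to all reads of a library, the median log2 fold change of all tested genes from 6h to Day1 moved from 0.52 to 1.57. Both genes then passed limma's test at Day1 against 6h: Csf1r with 3.82 (adjusted p = 0.0320) and Ccr2 with 3.29 (adjusted p = 0.0271). They were among 1243 genes called of 11577 tested on that scale. Relative to the median of all genes, the change of Csf1r was 2.25 under that scale and 2.14 under the deposited one, and that of Ccr2 was 1.73 and 1.66. From Day1 to Day7 the scale of all reads moved the median of all genes from -0.48 to -1.77. Ccr2 was then called lower, at -2.74 (limma, adjusted p = 0.0184), which is -0.97 relative to that median. In all, 4075 of 11577 genes were called in that comparison.

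Cx3cr1, the fractalkine receptor, was the member with the lowest mean level per base. It stood at 9.15, 5.68, 1.21 and 0.959 at 6h, at 0, 0.691, 2.12 and 0.156 at Day1, and at 1.38, 0, 0 and 0 at Day7. Reads were found in all 4 6h libraries, in 3 of Day1 and in 1 of Day7. The log2 fold change was -1.40 from 6h to Day1 (SE 0.66, unadjusted p = 0.0435, limma adjusted p = 0.437) and -1.74 from 6h to Day7 (SE 0.66, unadjusted p = 0.0139, adjusted p = 0.166), so neither passed. Depth limits the Day7 zeros: 3 reads, the limit that a count of 0 allows, correspond to values of 0.574, 1.85 and 0.998 in Day7 replicates 2, 3 and 4. NK cells and some T cells also carry Cx3cr1; the sum of the 10 NK cell genes lay between 2.90 and 227 in 6h libraries, where Ncr1, Klrb1c, Klre1 and Eomes were at 0, between 4.58 and 33.0 in Day1 libraries and between 0 and 37.5 in Day7 libraries, where Klra8 was at 0. The part of these cells in the Cx3cr1 values was not tested.

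Mrc1, the mannose receptor, was detected in 3 of 12 libraries. It stood at 33.2, 0, 2.90 and 0 at 6h, at 0 in each Day1 library, and at 1.99, 0, 0 and 0 at Day7. The reads were 178 in 6h replicate 1, 12 in 6h replicate 3 and 29 in Day7 replicate 1. For Day1, a count of 0 allows values of up to 0.371, 0.0942, 0.228 and 0.117 in replicates 1 to 4, which lie below all 3 detected values. It was therefore not detectable at Day1 in libraries whose C1qb values were 13.5 to 41.6, and it was given no test.

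F13a1, the factor XIII A subunit, was the member with the largest fold change. It stood at 4.67, 18.9, 0 and 83.4 at 6h, at 4.94, 17.4, 18.4 and 5.02 at Day1, and at 59.8, 125, 148 and 39.9 at Day7. All Day7 libraries were above all Day1 libraries, while 6h replicate 4 lay within the Day7 range. Day7 and Day1 groups without overlap, in either direction, were found for 22.9% of all tested genes. The log2 fold change from Day1 to Day7 was 2.96 (SE 1.01, unadjusted p = 0.00734), just short of the threshold after adjustment (limma, adjusted p = 0.0688). Scaled to all reads it was 0.90 (adjusted p = 0.546), and scaled to reads outside haemoglobin genes 1.19 (adjusted p = 0.352), which is 2.66 and 2.78 above the median of all genes on those scales, against 3.44 on the deposited one. From 6h to Day7 it was 3.06 (SE 1.01, adjusted p = 0.113), and from 6h to Day1 it was 0.11 (SE 1.01, adjusted p = 0.979). F13a1 passed limma's test for Day7 against Day1 without 6h replicate 4 (adjusted p = 0.0375) or without 6h replicate 3 (adjusted p = 0.0438). It also passed for Day7 against 6h without 6h replicate 4 (4.10, limma adjusted p = 0.00985). Genes called in all in these fits were, in that order, 1154 of 11029, 765 of 10910 and 695 of 11029.

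Platelet genes moved with F13a1. Of 20 platelet and megakaryocyte markers, all tested, 13 were higher at Day7 than at Day1 (against 2.19% of all tested genes) and 7 higher at Day7 than at 6h (against 0.607%), none was lower, and their median log2 fold changes were 3.72 and 4.17, against -0.48 and 0.13 for all genes. Under the scale of all reads these medians were 1.57 and 3.25. Their sum was between 279 and 33010 in 6h libraries, between 1399 and 7516 in Day1 libraries and between 30521 and 51150 in Day7 libraries, and no marker was at 0 throughout a group. Tubb1, a tubulin of platelets, changed by 5.21 from Day1 to Day7 (SE 0.88, limma adjusted p = 0.00688). The 5 libraries with the most F13a1 (39.9 to 148) were the 5 with the highest platelet sums (30521 to 51150), namely the 4 Day7 libraries and 6h replicate 4. The other 7 libraries had F13a1 at no more than 18.9 and platelet sums of at most 7516. The part of platelets in the F13a1 values was not tested. F13b, the partner subunit secreted by the liver, was at 0 at 6h, at 0, 1.76, 5.69 and 16.0 at Day1, and at 35.6, 0, 0 and 7.65 at Day7.

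**Figure D4:**
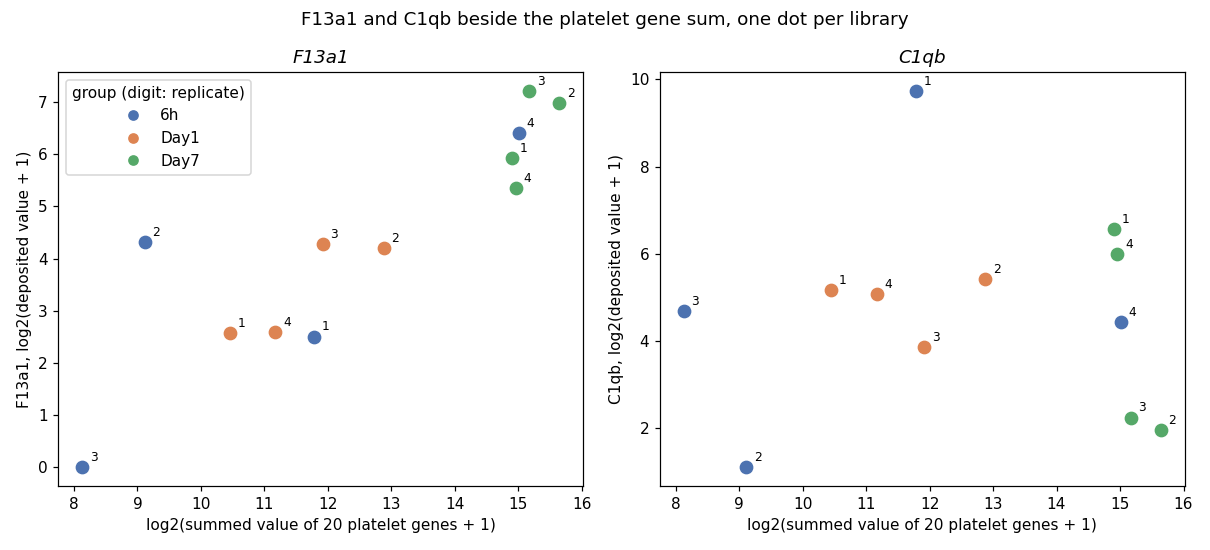
Each dot is a library (colour, time group; digit, replicate), with log2 of the summed value of 20 platelet genes plus 1 on the x axis and the log2(value + 1) of F13a1 (left) or C1qb (right) on the y axis. On the left the 4 Day7 libraries and 6h replicate 4 form the upper right group; on the right the same 5 libraries spread from low to high C1qb.

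Levels were compared between members per kilobase of the deposited gene length. The order of the medians over 12 libraries was C1qb 26.3, C1qc 12.4, C1qa 6.26, F13a1 2.91, Ly6c2 1.52, Csf1r 0.869, Ccr2 0.308, Cx3cr1 0.221 and Mrc1 0. Every neighbouring pair in this order overlapped in range over libraries: C1qb ran from 1.05 to 788 per kilobase, F13a1 from 0 to 23.0 and Csf1r from 0 to 4.92. At Day7 the group means put C1qb at 37.5 ± 41.6 per kilobase (SD, n = 4), C1qc at 25.3 ± 28.4, F13a1 at 14.5 ± 8.03 and C1qa at 12.3 ± 18.3, each SD being larger than the gap to a neighbour.

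Other monocyte and macrophage genes gave few calls. Of 15 further classical monocyte genes 12 were tested, and 0 passed in each comparison, with 0, 3 and 3 at an unadjusted p under 0.05 for Day1 against 6h, Day7 against Day1 and Day7 against 6h, where the shares of all tested genes were 11.2%, 29.1% and 18%. Lyz2, the lysozyme of monocytes, macrophages and neutrophils, was the most abundant of them, with a log2 fold change of 2.88 from Day1 to Day7 (SE 0.97, limma adjusted p = 0.0666). Neutrophil markers moved with it: 3 of 8 tested were higher at Day7 than at Day1, against 2.19% of all genes, with a median of 2.81. The sum of the 15 markers was between 37.2 and 241 in 6h libraries (Ly6g and Ltf at 0), between 11.9 and 112 in Day1 libraries (Cxcr2, Ly6g and Ltf at 0) and between 261 and 829.2 in Day7 libraries (Ly6g, Ltf and Ngp at 0), and the part of neutrophils in the Lyz2 values was not tested. Of 15 further non-classical genes 12 were tested and 0 passed, with 2, 3 and 4 at an unadjusted p under 0.05 beside the same shares; Nr4a1, the factor that non-classical monocytes need, had -2.53 from Day1 to Day7 (adjusted p = 0.0922) and Itgal, an integrin chain, 2.41 (adjusted p = 0.0906). Cd36, a scavenger receptor that platelets also carry, stood at 4.17 from 6h to Day7 (SE 1.22, adjusted p = 0.0817).

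Of 28 further tissue macrophage genes 20 were tested, and Maf alone passed, 1 of 20 beside 3.59% of all genes lower at Day7 than at Day1. Maf, a transcription factor of tissue macrophages and of other cells, fell by 3.79 on the log2 scale from Day1 to Day7 (SE 0.79, limma adjusted p = 0.0177), from 14.6, 26.6, 29.7 and 45.5 to 1.31, 0.574, 0 and 3.66. The groups did not overlap, as was found for 22.9% of all tested genes in this comparison. The list's median log2 fold change from Day1 to Day7 was -0.63, against -0.48 over all genes, and it was -1.57 under the scale of all reads, against -1.77. Apoe, an apolipoprotein of macrophages and hepatocytes, dominated the list's sum, at 17464 in Day7 replicate 1 and 9133 in 6h replicate 1, and did not pass in any comparison (adjusted p = 0.675, 0.728 and 0.769). Of 10 genes of large peritoneal macrophages 6 were tested, and 2 were lower at Day7 than at Day1: Gata6, the factor that sets their identity and is also made by mesothelium, by -3.33 (SE 0.84, adjusted p = 0.0301), and Garnl3 by -2.63 (SE 0.76, adjusted p = 0.0446). Mesothelial markers moved with these: 9 of 12 were lower at Day7 than at Day1 and none higher, and their sum was between 26.1 and 3200 in 6h libraries, 691 and 3739 in Day1 libraries and 3.70 and 365 in Day7 libraries, with no marker at 0 throughout a group. Fibroblast and matrix markers were lower for 6 of 11 tested, with a sum between 483 and 2544 at 6h (Lum at 0), 513 and 3764 at Day1 and 16.0 and 704 at Day7. From 6h to Day7, where 0.277% of all genes were lower, no gene of these 3 lists passed. The part of these cells in the Maf and Gata6 values was not tested. Calls between Day1 and Day7 depended on the model: with the presence of Y-linked reads as a term limma called 0 genes of 11211 (1774 at an unadjusted p under 0.05), edgeR called 2, and without Day1 replicate 2, 3 or 4 limma called 14, 3 and 20, against 648.

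Among the ligands, partners and regulators of the members, 10 of 13 were tested and Klf4 alone passed, 1 of 10 beside 3.59% of all tested genes lower at Day7 than at Day1. Klf4, a factor of the monocyte lineage and of many epithelia, fell by 4.75 on the log2 scale from Day1 to Day7 (SE 0.92, limma adjusted p = 0.0135), from 28.7, 81.2, 73.7 and 20.4 to 1.31, 0.383, 0 and 1.33. The PU.1 gene (Spi1, listed as Sfpi1) was at 0, 0, 2.90 and 12.2 at 6h, at 13.7, 6.37, 15.9 and 7.40 at Day1, and at 52.4, 12.8, 1.23 and 19.3 at Day7. It was at 0 in 6h replicate 1, the library with the most C1q. Csf1, the ligand of Csf1r, stood at 0, 0, 2.17 and 1.92 at 6h, at 3.71, 8.67, 3.19 and 11.2 at Day1, and at 1.72, 0, 0 and 0.665 at Day7. Ccl2, the main ligand of Ccr2, was at 0, 0, 8.69 and 2.64 at 6h, at 7.04, 8.79, 16.1 and 0.0389 at Day1, and at 0.688, 0, 0 and 0.333 at Day7. Neither ligand passed in any comparison.

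Of the partners of C1q in the C1 complex and the classical pathway, 8 of 10 were tested and C1s alone passed, 1 of 8 beside the same 3.59%. C1s, a protease of the C1 complex, fell by 2.98 on the log2 scale from Day1 to Day7 (SE 0.89, limma adjusted p = 0.0496), from 18.8, 78.2, 53.8 and 82.4 to 23.2, 0.766, 1.85 and 14.3. C3, the central complement protein, made by liver and mesothelium among others, did not pass (-2.44, SE 1.26, adjusted p = 0.196). The median of the list was -2.30 from Day1 to Day7, against -0.69 for C1qb, -0.66 for C1qc and -0.48 for all genes. It was -4.27 on the scale of all reads, against -1.77 for all genes, and turned to 0.29 when the presence of Y-linked reads was a term in the model. In 6h replicate 1 C1s stood at 30.6, C1ra at 2.99 and C2 at 0.934, beside the C1qb value of 855. The sum of 14 hepatocyte markers was between 8.33 and 275 in 6h libraries, where Ambp was at 0, between 2313 and 6780 in Day1 libraries and between 172 and 31184 in Day7 libraries, and Day7 replicates 1 and 4, which had the highest C1qb among Day7 libraries, also had the highest hepatocyte sums of all libraries (31184 and 10182). The part of liver RNA in the C1q values was not tested.

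The genes most like the members across the 12 libraries were taken by Pearson's r of log2(value + 1) among 4352 genes with a mean of at least 10, members left out. For the C1q mean they were Cfp, the complement factor properdin (0.92), Ly6e (0.92), Apoe (0.89), Lrwd1 (0.89) and Zfp36l2 (0.88); without 6h replicates 1 and 2, the libraries farthest from the median, these values were 0.85, 0.80, 0.95, 0.73 and 0.71. Cfp stood at 322 in 6h replicate 1, 131 in Day7 replicate 1 and 120 in Day7 replicate 4, and at 46.5 or less in the others. For the mean of Ly6c2 and Ccr2 they were Cyth4 (0.87), Fes (0.85), Nktr (0.85), Irf8 (0.84) and Baz2b (0.84). Irf8, a transcription factor of monocytes and dendritic cells, stood at 248 in Day1 replicate 1 and 193 in 6h replicate 1 and at 31.8 or less elsewhere. In those libraries the dendritic cell list, detected for 9 of its 10 genes at 6h and 10 at Day1, summed to 274 and 211, its highest values, and the part of dendritic cells in the Irf8 and Ccr2 values was not tested. For F13a1 the likest genes were Pcp4l1 (0.97), 2610507B11Rik (0.96), Ehd4 (0.95), Rab27b (0.94) and Itgb1 (0.94). For Mrc1 they were Il15ra (0.91), Tbata (0.90), Pard6g (0.89), Ighg2b (0.88) and Dntt (0.87), and without 6h replicates 1 and 3 they were 0.37, 0.95, 0.47, 0.51 and 0.67. Among the libraries then left, Mrc1 had reads only in Day7 replicate 1 (29 reads), so the latter values rest on that library. These values describe 12 libraries that share groups and differ in depth, and no test is given.

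**Figure D5:**
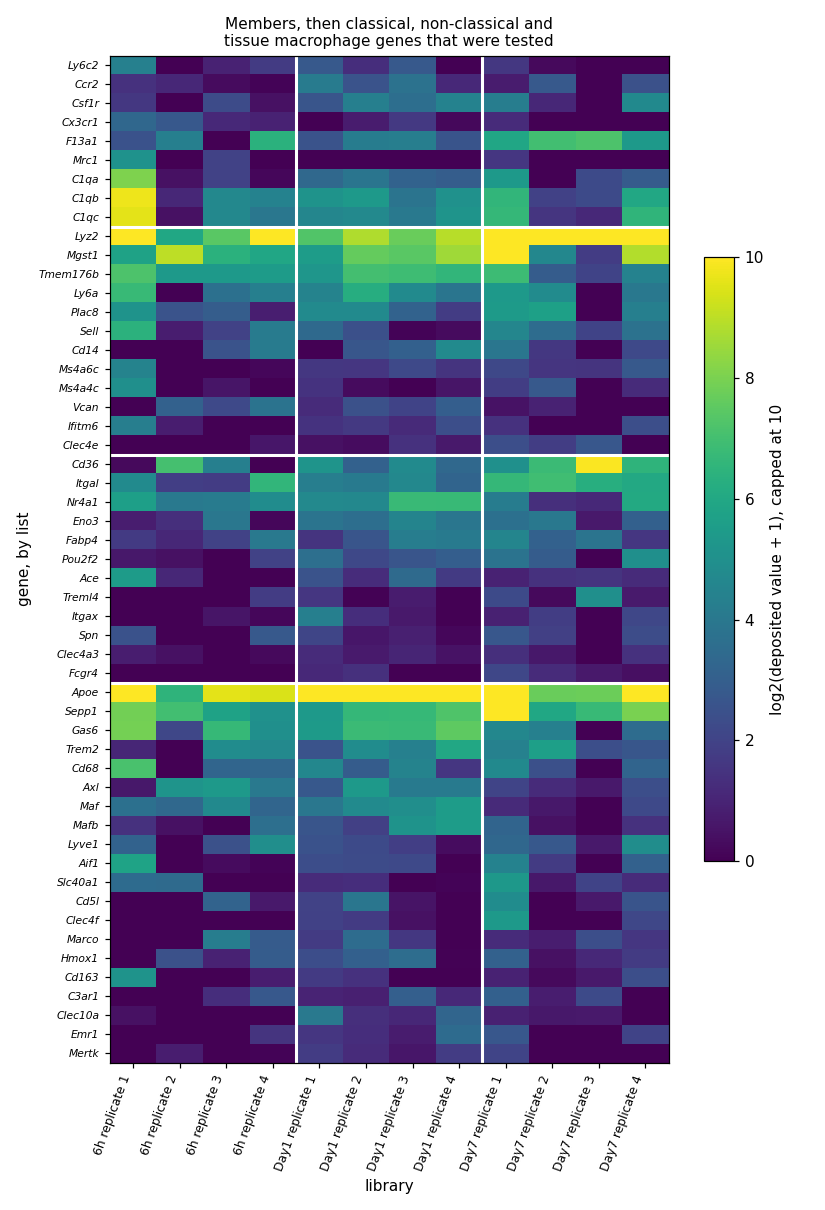
Rows are the 9 members and the 44 other tested classical, non-classical and tissue macrophage genes, columns the 12 libraries, and colour the log2(deposited value + 1), capped at 10. The column of 6h replicate 1 is bright for the C1q chains and Cd68 and dark for Emr1 and Mertk, and Lyz2 and Apoe are bright in most columns.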

How the data were processed

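Total RNA libraries, 4 each at 6h, Day1 and Day7, were analysed from 1 deposited table of a signal per gene, which the authors name CPM. The submitters' processing notes list STAR 2.7.10, HTSeq 2.0.1 and mm9; no source used here names the annotation or the scaling step. Column totals of the deposited signal run from 351981 to 5611145, unlike plain CPM; 100% of values came out as whole reads within 0.001 reads (relative tolerance 1e-06 for large counts). Groups and replicate numbers came from titles. limma 3.58.1 (R 4.3.3), with a trended variance, was fitted to log2(value + 1) over all 12 libraries with time group as the sole factor, and the procedure was tested on simulated data. Fold changes on this scale understate changes of low genes. Intervals of shares are exact binomial at 95%, and a count of 0 allows up to 3 reads. Shared sequence was searched in transcripts of another build, and promoter windows came from RefSeq (GRCm38.p6). Alternatives were other pseudocounts, filters, scalings, array weights, a replicate block, a term for Y-linked reads, libraries left out, edgeR 4.0.16 and DESeq2 1.42.0. Members and 18 gene lists were chosen with earlier results of these data known. From each list the text draws on the 3 genes of highest mean and up to 4 called genes per comparison; other genes named were chosen after their values were seen, or for their role.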

Additional observations from a re-analysis of the deposited data

Results flagged for a closer look

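In groups of 4 libraries, a highest or lowest library that stood apart from the rest (gap over range above 0.829) was sought in 36 sets of member values and shares; 11 were marked. Chance marks about 1 in 20 sets of independent, normally distributed values; these values are skewed, hold zeros and come from members that share libraries, so that rate is no measure here. In 6h replicate 1 stood C1qa at 269 (next 2.90), C1qb at 855 (next 24.6), C1qc at 762 (next 24.6), Ly6c2 at 19.4 (next 2.34) and Mrc1 at 33.2 (next 2.90). In Day7 replicate 1 stood C1qa at 40.9 (next 6.32), Ly6c2 at 2.06 (next 0.191), Cx3cr1 at 1.38 and Mrc1 at 1.99, the last pair against 0 in the other 3 Day7 libraries. The share of C1q among C1q, Ly6c2 and Ccr2 reads was low in 6h replicate 2, at 62.5% on 8 reads, and in Day7 replicate 2, at 43.9% on 57 reads. So 9 of the 11 fell in 2 libraries, 6h replicate 1 and Day7 replicate 1. These libraries also had the highest T cell marker sums within their groups (1231 and 65.8). The same held for B cell markers (217 and 316), the further tissue macrophage genes (9863 and 18962) and neutrophil markers. It did not hold for platelet or mesothelial markers. Day1 replicate 1 had a T cell sum of 84.8, above that of Day7 replicate 1, and was not marked. The T cell list was thus not singled out.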

How the results depend on the processing

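No member passed under 21 of the 26 alternatives. One of these 21, edgeR's own scaling (TMM), called the same 19, 648 and 99 genes in number as the deposited values. Its median fold changes were also the same, so it was no separate check. Scaling to all reads gave 2 member calls for Day1 against 6h (Csf1r, Ccr2), beside 1243 of 11577 genes called in all. It gave 1 for Day7 against Day1 (Ccr2), beside 4075 of 11577. Scaling to reads outside haemoglobin genes gave 1 for Day7 against Day1 (Ccr2), beside 3868 of 11508. Array weights gave 1 for Day7 against Day1, beside 2779 of 11211, and 1 for Day7 against 6h, beside 811 of 11211 (F13a1 in both). With 1 library left out, the counts ran from 0 to 0 for Day1 against 6h, and from 0 to 1 for Day7 against Day1 (F13a1, without 6h replicate 3 or 4) and for Day7 against 6h (F13a1, without 6h replicate 4). For Day7 against Day1, 765 of 10910 genes were called in all without 6h replicate 3 and 1154 of 11029 without 6h replicate 4. For Day7 against 6h, 695 of 11029 were called without 6h replicate 4. The cause of these shifts was not tested. The replicate numbers did not pair the libraries: deviations of same-numbered libraries correlated at -0.23 to 0.12 (over 0.1 in 1 of 12 pairs), and with the replicate block 0 members passed, with 45, 571 and 156 genes called in all against 19, 648 and 99. Genes called ran from 0 to 1243, 0 to 4075 and 0 to 811 over the alternatives for Day1 against 6h, Day7 against Day1 and Day7 against 6h. Of 24 member fold changes, 13 kept their direction throughout: all of Ccr2, Csf1r and Cx3cr1, and F13a1 and Ly6c2 at Day7 against either time. DESeq2 gave no adjusted p for C1qa, which was left out. The C1q excess over the classical pair was recomputed only with other pseudocounts, with other scalings and with libraries left out. Its means then lay between 1.73 and 3.77 (6h), 1.35 and 2.48 (Day1) and 1.79 and 3.59 (Day7).

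The other directions turned, none past the threshold, and the cause was not tested. For Day1 against 6h, C1qb and C1qc were 0.027 and 0.22 with pseudocount 0.25, 1.11 and 1.12 scaled to all reads, 0.66 and 0.68 scaled outside haemoglobin, 0.67 and 0.57 with array weights, 0.053 and 0.050 when Y-linked reads were a term, and 1.47 and 1.59 without the libraries of fewest genes at 6h and Day7. Under the same 6 alternatives Ly6c2 was 0.011, 0.55, 0.36, 0.58, 0.22 and 0.81. C1qa was -0.048 with pseudocount 4 and -2.86 in edgeR. F13a1 was -0.21 with pseudocount 4, -1.23 in both edgeR and DESeq2, and -0.16 without the libraries of fewest genes. For Day7 against 6h, C1qa was 0.11 with pseudocount 0.25; with array weights C1qa, C1qb and C1qc were 0.41, 0.017 and 0.21, and without the libraries of fewest genes 1.89, 1.44 and 1.87. For Day7 against Day1, C1qa was 0.46 in edgeR, C1qb 0.42 in both edgeR and DESeq2, C1qc 0.99 in edgeR and 0.98 in DESeq2 and 0.28 without the libraries of fewest genes. With 1 library left out, Day1 against 6h ran from -0.17 to 2.47 for C1qa, -1.41 to 1.47 for C1qb, -1.45 to 1.59 for C1qc, -0.996 to 1.14 for F13a1 and -0.64 to 0.81 for Ly6c2. Day7 against 6h ran from -0.97 to 1.76, -2.10 to 0.79 and -2.10 to 0.93 for C1qa, C1qb and C1qc, and Day7 against Day1 from -1.63 to 0.17, -1.48 to 0.056 and -1.55 to 0.28.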
